A study of Mus musculus with 8 samples.

Results

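The genes described here encode the 3 large families of conjugating enzymes in mouse: glutathione S-transferases (GST), cytosolic sulfotransferases (SULT) and UDP-glucuronosyltransferases (UGT). The families were chosen with earlier results of these data known. Within them, every protein-coding row of the count table was taken by name. Symbols started with Gst plus a class letter (a, k, m, o, p, s, t or z), Mgst, Sult or Ugt, followed by a digit. This gave 68 genes of 55401, of which 25 were GST genes, 21 SULT genes and 22 UGT genes. A further 7 rows with such names were pseudogenes and were left out. RNA was sequenced from 8 libraries labelled as airway cells of mice, 4 in each of 2 groups. The 4 control libraries came from the genotype Scgb1a1cre; Cdh1F/+, with 1 floxed allele of the E-cadherin gene Cdh1. The 4 mutant libraries came from the genotype Scgb1a1cre; Cdh1F/F, with 2 floxed alleles. Both groups carried the Cre recombinase under Scgb1a1, a gene of club cells, the secretory cells of small airways, and both were taken 10 days after tamoxifen. The series describes depletion of immune and endothelial cells, selection on EPCAM and a sort on GFP, and the labels do not say which GFP fraction each library holds. The study asked how gene expression in airway cell types changes once Cdh1 is inactivated in club cells.

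Conjugating enzymes attach a polar group to reactive or fat-soluble molecules, which makes them less reactive and easier to export. GST enzymes join glutathione to electrophiles, SULT enzymes transfer a sulfate group from the donor PAPS, and UGT enzymes transfer glucuronic acid from UDP-glucuronic acid, mostly in the endoplasmic reticulum. In the lung, club cells are known as the main site of the metabolism of inhaled chemicals, where oxidation by cytochrome P450 enzymes precedes conjugation. Many GST genes are known targets of the transcription factor NRF2, which binds the antioxidant response element, and some GST and UGT genes are known targets of the aryl hydrocarbon receptor.

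The promoters of 5 GST genes described below are shown because they differ in those binding motifs. They were chosen for this difference and do not stand for the other genes. Each is the 150 bases before a RefSeq transcription start on GRCm38.p6, written 5′ to 3′ on the gene's strand, and capitals mark a match to either motif searched. The motifs were TGACNNNGC, the core of the antioxidant response element, and GCGTG, the core recognised by the aryl hydrocarbon receptor. Both were searched on both strands, and the matches shown do not overlap each other. The windows are chr9:78347146-78347295 on the minus strand for Gsta2, chr1:21240435-21240584 on the plus strand for Gsta3, chr3:108017974-108018123 on the minus strand for Gstm1, chr6:138140377-138140526 on the plus strand for Mgst1 and chr19:47854823-47854972 on the plus strand for Gsto1.
Gsta2: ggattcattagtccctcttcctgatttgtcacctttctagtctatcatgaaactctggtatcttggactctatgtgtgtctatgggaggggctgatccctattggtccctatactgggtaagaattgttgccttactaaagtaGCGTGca
Gsta3: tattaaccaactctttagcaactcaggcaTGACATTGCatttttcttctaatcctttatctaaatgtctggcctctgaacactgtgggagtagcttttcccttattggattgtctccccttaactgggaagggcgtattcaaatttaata
Gstm1: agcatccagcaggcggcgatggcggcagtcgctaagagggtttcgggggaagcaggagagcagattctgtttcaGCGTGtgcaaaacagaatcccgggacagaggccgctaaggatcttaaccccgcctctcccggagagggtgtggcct
Mgst1: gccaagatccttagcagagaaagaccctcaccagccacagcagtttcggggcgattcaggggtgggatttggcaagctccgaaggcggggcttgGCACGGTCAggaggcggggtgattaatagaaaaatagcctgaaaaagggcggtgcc
Gsto1: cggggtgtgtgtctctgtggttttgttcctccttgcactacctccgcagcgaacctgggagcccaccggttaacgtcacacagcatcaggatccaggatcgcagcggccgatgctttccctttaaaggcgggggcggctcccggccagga

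Gsta3 held TGACNNNGC starting 121 bases before its start, and Mgst1 held it 56 bases before its start, on the opposite strand. Gsta2 and Gstm1 held GCGTG starting 7 and 76 bases before the start, and Gsto1 held neither motif in these bases. Over whole RefSeq windows of 300 bases, from 250 before to 50 after a start, TGACNNNGC was found for 3781 of 27025 genes and GCGTG for 9500, or 35.2%. Of the 60 conjugating enzyme genes with a window, 4 held TGACNNNGC and 13 held GCGTG. Of the 8 genes with a window that were lower in mutant libraries, 2 held TGACNNNGC and 3 held GCGTG, and of the 3 that were higher, 0 and 1 did. Of the 17 that were tested and not called, 2 and 5 did. Among genes not shown, Gstm2 and Gstk1, which were lower, held neither motif, and Gstp3, which was higher, held GCGTG. A match describes the letters of the window and does not show that a factor binds there.

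Libraries held 15111663 to 21673654 counts. Levels are given as CPM (counts scaled by library size), and the 3 counts that a count of 0 allows correspond to between 0.136 and 0.207 CPM, counting error only. The level of Cdh1 was 383 ± 44.7 CPM in controls against 403 ± 6.08 CPM in mutant libraries (SD, n = 4 each) (edgeR quasi-likelihood test, Benjamini-Hochberg adjusted p = 0.648). A count summed over the whole gene does not check a partial deletion in some of the cells, so "mutant" below means the label. Controls 2 and 3 stood apart from controls 1 and 4 on the first principal component of all genes tested, which carried 48.8% of the variance. They lay at -46.5 and -53.7, against -4.10 and -9.78 for controls 1 and 4 and 24.5 to 31.6 for the mutant libraries. Club cell markers summed to 25341 to 27816 CPM in controls and 8778 to 11049 CPM in mutant libraries. Separate animals are not stated in the labels, and p-values therefore reflect the spread among libraries, which may be technical.

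In mutant libraries the GST genes of the alpha and mu classes that carried most of their class's counts, together with Mgst1, Gstk1 and Sult1d1, were lower, and both omega class genes were higher. Of the 68 genes, 32 passed the filter on low counts, and 13 of these passed an adjusted p of 0.05 in the edgeR quasi-likelihood test, with Benjamini-Hochberg adjustment over all genes tested. The share called among all 16964 genes tested was 7.81%. Among the 32 genes, 4 were higher, beside 5.45% of all genes, and 9 were lower, beside 2.36% of all genes. Of the 4, Sult4a1 passed the filter through the mutant libraries alone, and 3 remain without it. Of the 9, Gsta2 and Ugt1a6a passed the filter only because of the controls. The median log2 fold change was -0.13 over the 32 genes and -0.01 over all genes tested. In 13 of the 32 genes the groups did not overlap, and this held for 16.8% of all genes tested. All genes together split into 924 higher and 401 lower calls, or 823 and 744 once a trend with GC content was removed, while the 4 and 9 calls among the conjugating enzymes kept these numbers. The other 36 genes had too few counts to test, 21 of them with a count of 0 in every library.

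**Figure D1:**
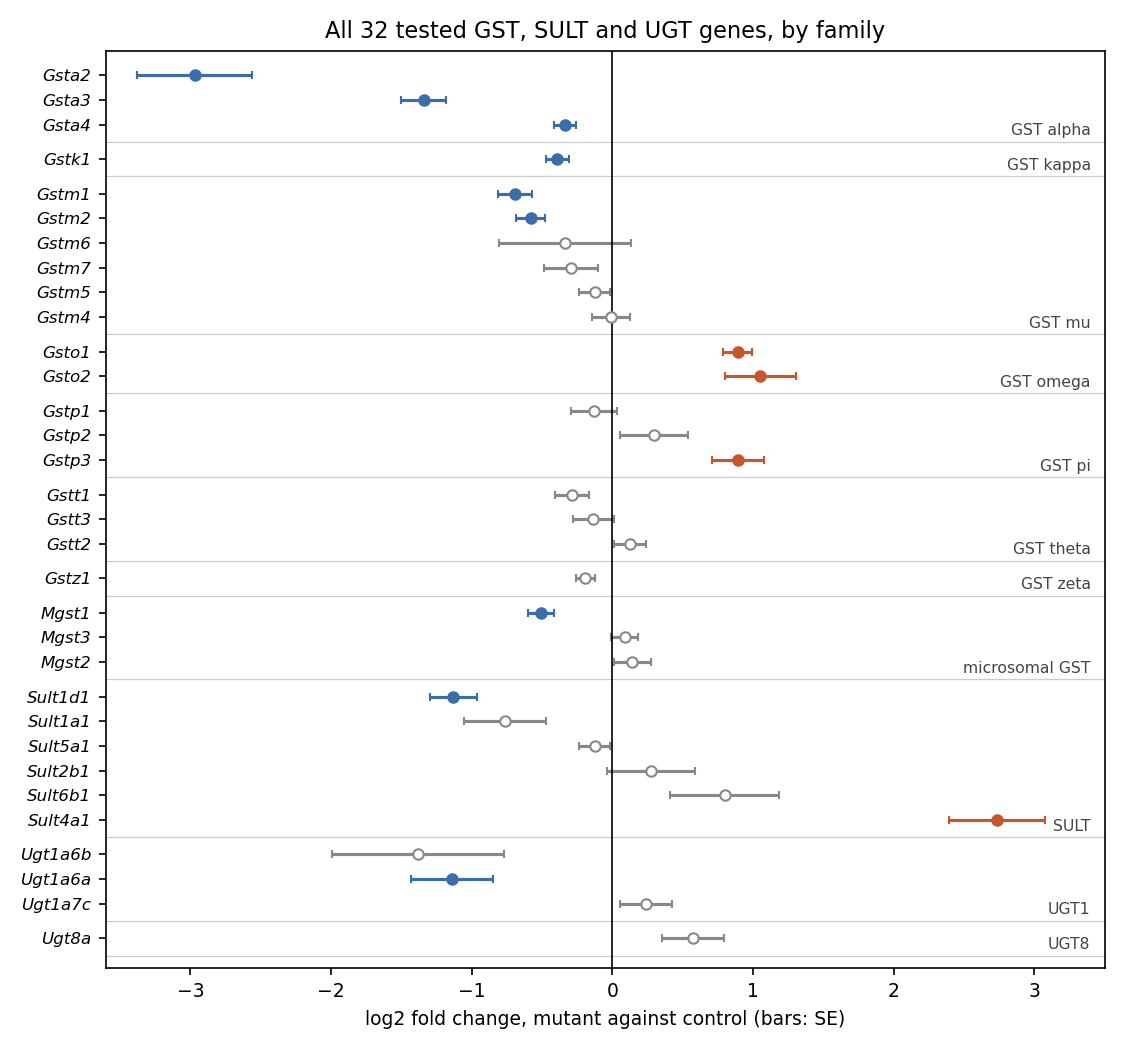
Log2 fold changes of mutant against control for the 32 tested GST, SULT and UGT genes, ordered by family (x axis: log2 fold change; points: estimates; bars: SE; filled points: adjusted p under 0.05, blue lower and orange higher). The 3 tested alpha class genes lie left of 0, down to Gsta2 at -2.97, and both omega class genes lie right of it.

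Alpha class enzymes conjugate products of lipid peroxidation and many drugs, and all 3 tested genes of the class were lower in mutant libraries. Gsta2 (chr9:78331018-78355788) measured 6.65, 4.41, 4.58 and 4.71 CPM in controls 1 to 4 and 0.230, 0.818, 0.280 and 1.18 CPM in mutant libraries 1 to 4. The lowest control was above the highest mutant library, and mutant libraries 2 and 4 were above mutant libraries 1 and 3. The level fell 7.84-fold (log2 fold change -2.97 ± 0.41 SE), from counts of 64 to 138 in controls to counts of 4 to 26. Gsta2 passed the filter only because of the controls, so its p-value is not given as support. Of the 75-base stretches in Gsta2 transcripts, 36.6% also occur in another gene's transcripts, and reads confined to such stretches were not counted. The level of Gsta2 is therefore uncertain.

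Gsta3 (chr1:21240589-21265661), an alpha class enzyme known in mouse for conjugating the reactive epoxide of aflatoxin, carried 71.6% of the class's CPM in controls. It measured 196, 249.96, 229 and 154 CPM in controls and 80.3, 87.6, 66.0 and 93.1 CPM in mutant libraries. The groups were well apart, and the mean of 207 ± 42.1 CPM became 81.8 ± 11.7 CPM (SD, n = 4 each). It was 2.53-fold lower (log2 fold change -1.34 ± 0.16 SE, adjusted p = 0.00117, edgeR quasi-likelihood test, Benjamini-Hochberg adjustment). Gsta4 (chr9:78182774-78209349), which conjugates the peroxidation product 4-hydroxynonenal, measured 78.7, 77.4, 70.1 and 81.7 CPM in controls and 57.3, 62.3, 57.0 and 66.9 CPM in mutant libraries. Its groups did not overlap, the difference was 1.26-fold and the adjusted p was 0.0297. The call of Gsta4 was lost without control 2 (adjusted p = 0.0710) or without mutant library 1, 2 or 3 (0.0799 to 0.107), and with scaling to library size only (0.0722). In bulk libraries fewer cells of a type and less RNA per cell cannot be told apart, here and for every gene that follows.

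The mu class genes lie side by side on chromosome 3, and of the 6 tested the pair with the highest levels was called. Gstm1 (chr3:108012255-108017973), the most abundant GST per length in controls, measured 370, 406, 426 and 528 CPM in controls and 264, 294, 228 and 284 CPM in mutant libraries. Every control was above every mutant library, with means of 432 ± 67.7 and 267 ± 28.7 CPM (SD, n = 4 each). The fall was 1.62-fold (log2 fold change -0.69 ± 0.12 SE, adjusted p = 0.00849, edgeR quasi-likelihood test, Benjamini-Hochberg adjustment). Of the 75-base stretches in Gstm1 transcripts, 11.7% also occur in another gene's transcripts. Gstm2 (chr3:107981702-107986453) measured 144, 195, 201 and 188 CPM in controls and 125, 126, 118 and 118 CPM in mutant libraries. Its log2 fold change was -0.58 ± 0.10 SE (adjusted p = 0.00866), again with no overlap. Gstm4, Gstm5, Gstm6 and Gstm7 did not pass the test, with adjusted p between 0.369 and 0.978 and means of 4.44 to 11.3 CPM in controls. The 95% interval of the mutant to control ratio of Gstm4 was 0.808 to 1.22, and that of Gstm5 was 0.768 to 1.09. Those of Gstm6 and Gstm7 were wider, at 0.380 to 1.65 and 0.605 to 1.10, and both held the Gstm1 ratio of 0.618.

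Microsomal GST enzymes are a separate family of membrane proteins with the same reaction, and 1 of its 3 genes was lower. Mgst1 (chr6:138140316-138156755), found in the endoplasmic reticulum and outer mitochondrial membrane, measured 292, 328, 315 and 269 CPM in controls and 207, 213, 191 and 238 CPM in mutant libraries. The groups did not overlap, and the level was 1.42-fold lower (log2 fold change -0.51 ± 0.09 SE, adjusted p = 0.0101). Mgst2 and Mgst3, known for making leukotriene C4, measured 7.65 ± 0.820 and 39.4 ± 4.80 CPM in controls and 8.42 ± 0.963 and 41.8 ± 2.81 CPM in mutant libraries (SD, n = 4 each). Neither passed the test, with adjusted p of 0.541 and 0.610 from the edgeR fit. Gstk1 (chr6:42245935-42250447), the kappa class enzyme of mitochondria and peroxisomes, was 1.31-fold lower, at 47.8, 51.9, 48.4 and 50.9 CPM in controls and 36.4, 37.7, 34.4 and 43.1 CPM in mutant libraries. Its adjusted p was 0.0177 and rose to between 0.0513 and 0.0705 without control 2 or mutant library 1, 2 or 3, and to 0.0586 without controls 2 and 3.

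The omega class moved the other way. Omega enzymes carry a cysteine in the active site and are known for removing glutathione from proteins and reducing dehydroascorbate, more than for conjugating foreign chemicals. Gsto1 (chr19:47854970-47864790) measured 158, 199, 179 and 179 CPM in controls and 375, 341, 289 and 319 CPM in mutant libraries. The lowest mutant library was well above the highest control, and the level rose 1.85-fold (95% interval 1.59 to 2.17; adjusted p = 8.22e-04, edgeR quasi-likelihood test, Benjamini-Hochberg adjustment). Gsto2 (chr19:47865534-47886324), its neighbour on the chromosome, measured 0.819, 0.964, 1.23 and 1.02 CPM in controls and 1.96, 2.07, 1.46 and 2.85 CPM in mutant libraries. It was 2.07-fold higher, at a level far below that of Gsto1 (adjusted p = 0.0339). Its call was lost without control 2 or mutant library 1, 2 or 4, with adjusted p between 0.0843 and 0.0886, and with the replicate number as a block (0.0678).

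The pi class holds Gstp1, a well-studied detoxifying enzyme of many epithelia, beside 2 related genes on chromosome 19. Gstp1 measured 80.9 to 123 CPM in controls and 71.0 to 111 CPM in mutant libraries, and the groups overlapped (adjusted p = 0.654, 95% interval of the ratio 0.709 to 1.18). Gstp3 (chr19:4057477-4059569) measured 2.89, 3.79, 2.65 and 4.41 CPM in controls and 6.56, 5.83, 5.88 and 7.25 CPM in mutant libraries. It rose 1.86-fold (adjusted p = 0.0185), with no overlap, and the call was lost without mutant library 1 (0.0608) or 4 (0.0605). It was also lost without controls 2 and 3 (0.0674). Gstp2 did not pass the test (adjusted p = 0.473). It shares 50.1% of its 75-base stretches with other genes, and Gstp1 29.2%, so both are uncertain.

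Among theta class genes, which act on small halogenated molecules, and the zeta class gene Gstz1, an enzyme of tyrosine breakdown, none passed the test. Gstt1 measured 74.9, 101, 106 and 111 CPM in controls and 75.4, 76.9, 80.6 and 88.6 CPM in mutant libraries. Control 1 was below every mutant library and the other 3 controls were above every one, and the adjusted p was 0.166 with all libraries and 0.0116 without control 1. Gstt2 and Gstt3 measured 22.7 ± 3.62 and 25.6 ± 4.69 CPM in controls and 24.8 ± 1.72 and 23.3 ± 2.83 CPM in mutant libraries (SD, n = 4 each). Gstz1 measured 55.9 ± 3.52 CPM in controls and 48.9 ± 2.32 CPM in mutant libraries (adjusted p = 0.124), and passed the test only without controls 1 and 4 (0.0228). Before adjustment the edgeR p-values of Gstt1 and Gstz1 were 0.0364 and 0.0210, and DESeq2 called 0 of these 4 tested genes.

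**Figure D2:**
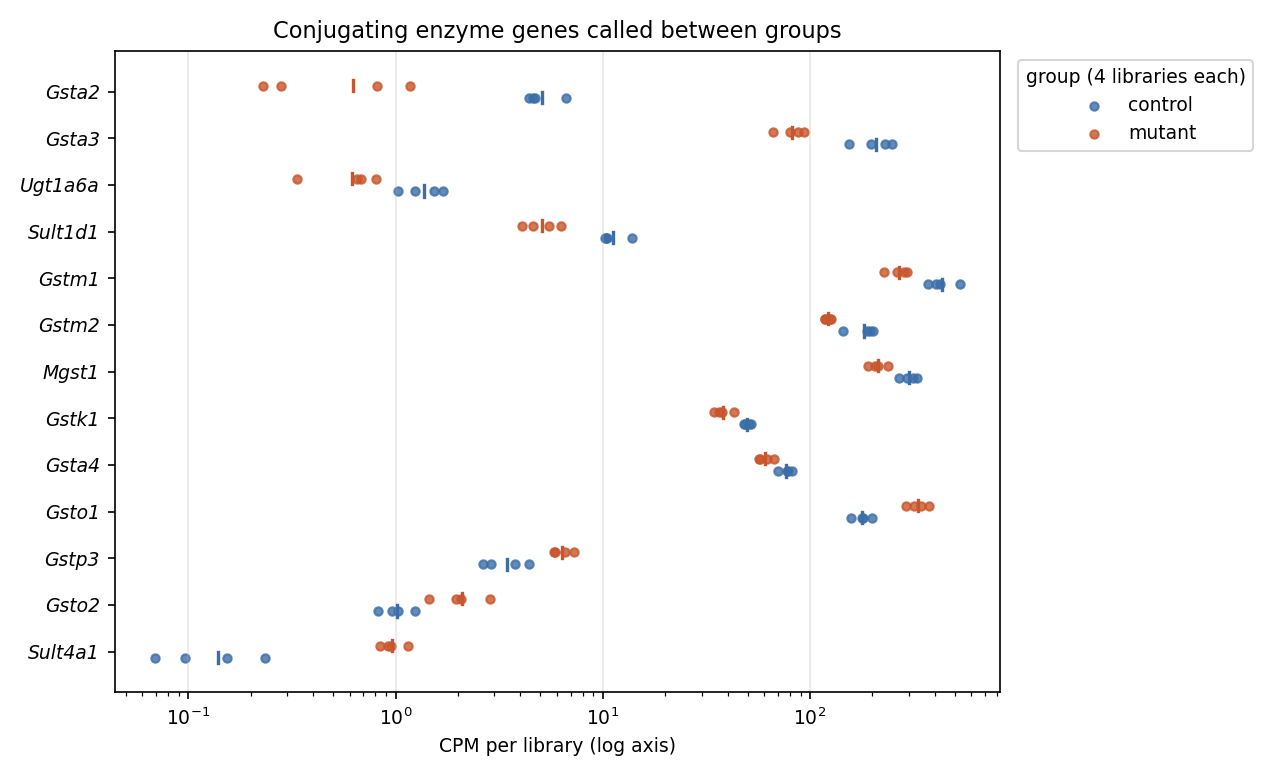
CPM of the 13 conjugating enzyme genes called between groups, on a log axis, with 1 point per library (blue control, orange mutant) and a vertical mark at each group's mean. The groups do not overlap for any of the 13 genes, and levels span from under 1 CPM for Sult4a1, which passed the filter through the mutant libraries alone, to 528 CPM for Gstm1 in control 4. Gsta2 and Ugt1a6a passed the filter only because of the controls.

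The make-up of the GST transcripts differed between the groups. The summed CPM of the 25 GST genes was 1822 ± 120.0 in controls and 1473 ± 96.2 in mutant libraries (SD, n = 4 each), with ranges of 1644 to 1895 and 1329 to 1526, given without a test. Alpha class genes summed to 289 ± 38.8 and 143 ± 16.4 CPM, mu class genes to 646 ± 86.6 and 418 ± 32.5 CPM, and microsomal genes to 348 ± 30.2 and 262 ± 21.6 CPM. Omega class genes summed to 180 ± 16.8 CPM in controls and 333 ± 36.3 CPM in mutant libraries. Gsto1 accounted for 9.81% of GST CPM in controls and 22.5% in mutant libraries, while Gstm1 went from 23.7% to 18.1% and Gsta3 from 11.4% to 5.55%. On the scale of CPM per kilobase of exon, which allows levels of different genes to be compared, the order in controls was Gstm1 at 293, Mgst1 at 150, Gstm2 at 108 and Gsto1 at 88.3. In mutant libraries it was Gstm1 at 181, Gsto1 at 164, Mgst1 at 105 and Gstm2 at 72.4. The Gstm1 and Gsto1 ranges overlapped in mutant libraries, at 155 to 199 and 143 to 185 CPM per kilobase, so their order there is not settled by these libraries. In controls the Gstm2 range of 85.8 to 120.0 overlapped the Gsto1 range of 78.0 to 98.2.

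**Figure D3:**
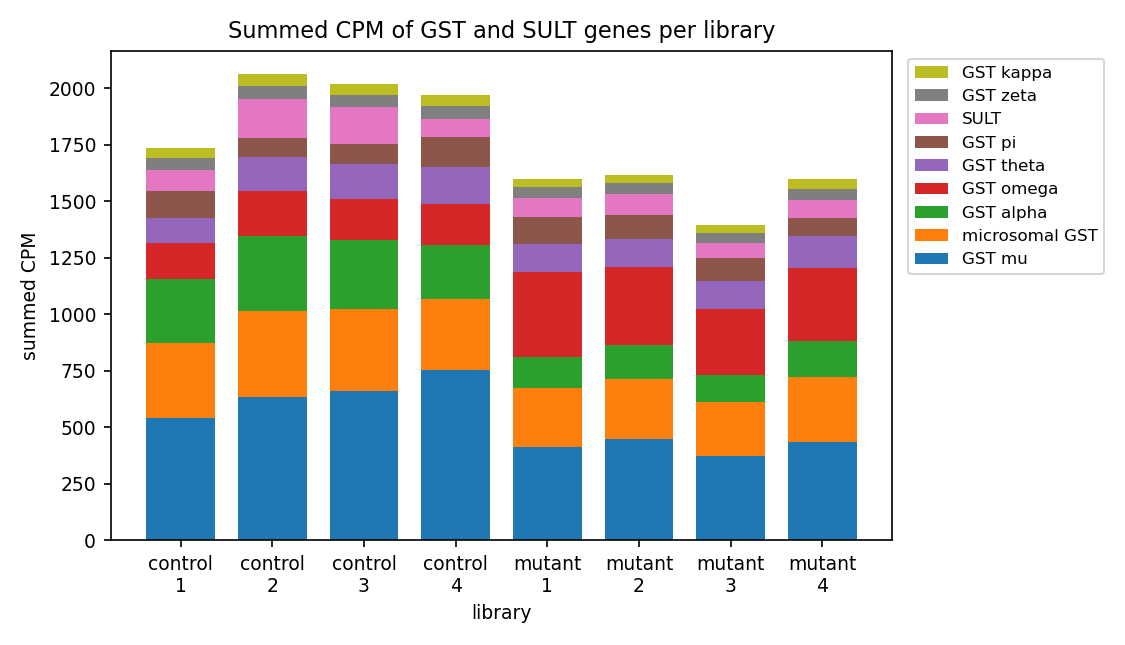
Summed CPM of each GST class and of the SULT genes in each of the 8 libraries (stacked bars from 0; colours: families; UGT genes, under 10 CPM in sum, are not drawn). The red omega block grows from 180 CPM on average in controls to 333 CPM in mutant libraries, and the blue mu and green alpha blocks shrink.

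Sulfotransferases were less abundant, and 6 of the 21 genes could be tested. Sult1d1 (chr5:87554645-87569027), which sulfates catecholamines and other phenols, measured 10.5, 13.8, 10.4 and 10.2 CPM in controls and 4.60, 6.27, 4.09 and 5.48 CPM in mutant libraries. It was 2.19-fold lower, from 11.2 ± 1.73 to 5.11 ± 0.963 CPM (SD, n = 4 each; adjusted p = 0.00353, edgeR quasi-likelihood test, Benjamini-Hochberg adjustment). The groups did not overlap. Sult1a1 (chr7:126672865-126676432), the phenol sulfotransferase, carried 78.1% of the SULT CPM in controls and measured 67.1, 138, 135 and 54.9 CPM there, against 62.5, 67.2, 45.8 and 56.2 CPM in mutant libraries. Controls 2 and 3 were high, and controls 1 and 4 lay in the range of the mutant libraries. The adjusted p of Sult1a1 was 0.140 with all libraries, 0.0354 without control 4 and 2.28e-04 without controls 1 and 4. Without controls 2 and 3 its log2 fold change was -0.07 and the adjusted p 0.858, so the size of the difference rested on which controls were used. Control 1 and control 4 were also the libraries where the summed SULT CPM, at 94.0 and 81.4, was near the mutant libraries' 66.9 to 92.4.

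Sult4a1 (chr15:84076097-84105754), a sulfotransferase best known from brain with no settled substrate, gave 2, 1, 4 and 3 counts in controls and 16, 21, 15 and 21 counts in mutant libraries. It passed the filter through the mutant libraries alone, so its p-value is not given as support. Scaled for depth, the counts were 6.93 times as many in mutant libraries, with an exact 95% counting interval of 3.56 to 15.1. Sult2b1, a cholesterol sulfotransferase, and Sult5a1 and Sult6b1 did not pass the test, with adjusted p between 0.235 and 0.616. The other 15 SULT genes were not tested, and 9 of them had a count of 0 in every library.

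UGT transcripts were scarce as counted: the 22 genes summed to between 6.16 and 9.32 CPM in all 8 libraries. The UGT1 genes share their last exons on chromosome 1, and reads over exons of several genes were not counted. Each value therefore comes from the parts of a gene that no other gene overlaps, and the UGT sum leaves out the reads over shared exons. Ugt1a6a (chr1:88134809-88218997), which glucuronidates small phenols, measured 1.69, 1.24, 1.53 and 1.02 CPM in controls and 0.806, 0.654, 0.336 and 0.679 CPM in mutant libraries. It was 2.20-fold lower with no overlap, but 50.3% of its exon bases overlap other genes. Mutant library 3 gave 6 counts, so Ugt1a6a passed the filter only because of the controls, and its p-value is not given as support. The call was lost in 7 of 8 fits that left out 1 library, at adjusted p of 0.0599 to 0.105. Only leaving out control 4 kept it. Ugt1a6b measured 2.84, 1.38, 1.12 and 4.51 CPM in controls and 0.518, 2.24, 0.336 and 0.725 CPM in mutant libraries, and did not pass the test (adjusted p = 0.194). Ugt1a7c measured 2.70 ± 0.471 and 3.19 ± 0.441 CPM (SD, n = 4 each; adjusted p = 0.447), and Ugt8a, the enzyme of galactosylceramide synthesis, 1.07 ± 0.191 and 1.596 ± 0.277 CPM (adjusted p = 0.144). The 12 genes of the UGT2 and UGT3 families, most of which are known from liver, gave 20 counts over all 8 libraries together.

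Neighbours within a gene cluster can be set beside each other by the log2 ratio of their CPM in each library. The ratios were chosen after the values of the genes were known, so they are given as a description, with no test. Relative to Gsta4, Gsta2 was lower in mutant libraries by 2.99 on the log2 scale. Relative to Gstm1, the log2 ratios of the weaker neighbours Gstm4, Gstm5 and Gstm7 were larger by 0.69, 0.57 and 0.42. The ratio of Gstm6, also a weaker neighbour, was larger by 0.06, less than its SD of 0.58 in controls. That of Gstm2 was larger by 0.12. Relative to Gstp1, the ratio of Gstp3 was larger by 1.04 and that of Gstp2 by 0.46. The ratio of Gsto2 to Gsto1 differed by 0.13, less than its SD of 0.22 in controls and 0.38 in mutant libraries (n = 4 each).

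The genes that supply, carry or cut the conjugates were taken from lists written by role. Their counts are small and stand beside 5.45% of all genes tested called higher and 2.36% called lower. Glutathione supply had 2 of 18 tested genes higher and 0 lower. Gclc, the catalytic subunit of the rate-limiting enzyme of glutathione synthesis, measured 195, 207, 202 and 158 CPM in controls and 434, 497, 292 and 426 CPM in mutant libraries. It rose 2.16-fold (adjusted p = 0.00281, edgeR quasi-likelihood test, Benjamini-Hochberg adjustment). Its groups did not overlap. Ggt6, of the gamma-glutamyltransferase family, rose 2.15-fold (adjusted p = 0.00525) from 2.01 ± 0.257 CPM (SD, n = 4). The partner subunit Gclm, at 41.0 and 38.3 CPM, and the synthase Gss did not pass the test (adjusted p = 0.446 and 0.534). The glutathione reductase Gsr, at 59.2 ± 12.1 and 79.9 ± 2.21 CPM (SD, n = 4 each), also missed the threshold (0.0635).

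Sulfate donor supply had 0 of 8 tested genes called, with 0 under an unadjusted p of 0.05 in the edgeR fit and 0 called by DESeq2. The PAPS synthases Papss1 and Papss2 had adjusted p of 0.554 and 0.273. Among the genes that supply the glucuronate donor, Pgm1, a phosphoglucomutase, was 1.29-fold higher (adjusted p = 0.0260), and lost its call without mutant library 1, 2 or 4 (0.0721 to 0.0846) and with the replicate number as a block (0.0516). Ugdh, which makes the glucuronate donor itself, was at 44.2 and 42.7 CPM (adjusted p = 0.764).

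Among 8 tested export pumps, 2 were lower and 0 higher, beside 2.36% and 5.45% of all genes tested. Abcc3, a pump of glucuronides and other organic anions, measured 55.0, 75.5, 71.7 and 76.2 CPM in controls and 37.5, 48.3, 44.5 and 44.2 CPM in mutant libraries. It was 1.59-fold lower (adjusted p = 0.00829), and missed the threshold without controls 2 and 3 (0.0544). Abcb1a, which encodes P-glycoprotein and is also a gene of lung endothelium, was 1.41-fold lower at an adjusted p of 0.0477, which was lost in 6 of 8 fits that left out 1 library. Endothelial markers summed to 3844 to 4920 CPM in controls and 3127 to 3500 CPM in mutant libraries, with 4 of 8 lower, and their part in Abcb1a was not tested. Of 7 tested genes that cleave conjugates, the arylsulfatase genes Arsa and Arsk were 1.22-fold and 1.57-fold lower (adjusted p = 0.0403 and 0.0467). Arsa lost its call in 7 and Arsk in 6 of the 8 fits that left out 1 library.

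Of 16 tested regulators, Hnf4a alone was called, a share near the 7.81% called among all genes tested. Hnf4a, a nuclear receptor known from liver and gut that drives many conjugating enzymes there, gave 0, 1, 1 and 1 counts in controls and 35, 31, 31 and 35 counts in mutant libraries. Scaled for depth this was 41.8 times as many counts, with an exact 95% counting interval of 13.98 to 205. Hnf4a too passed the filter through the mutant libraries alone, so its call is not given as support. The liver markers Serpina1a and Fgb were at 0 in 7 libraries each, and the 6 liver markers summed to 2.79 to 5.12 CPM in controls and 2.08 to 3.47 CPM in mutant libraries. Nfe2l2, which encodes NRF2, measured 216 ± 10.5 and 246 ± 7.04 CPM (SD, n = 4 each; adjusted p = 0.107), its inhibitor Keap1 60.4 and 56.3 CPM (0.405) and the receptor gene Ahr 65.5 and 62.6 CPM (0.841).

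Among 16 tested genes of other conjugating or related enzymes, 2 were higher and 1 lower. Hpgds, the sigma class GST that makes prostaglandin D2 and is known from immune cells, rose 1.95-fold, from 2.16 ± 0.246 to 4.22 ± 0.286 CPM (SD, n = 4 each; adjusted p = 0.00536). Ptges, a relative of the microsomal GST family that makes prostaglandin E2, was 1.66-fold higher (0.0484), a call lost in 6 of those 8 fits. Tpst1, a sulfotransferase of protein tyrosines, was 1.26-fold lower (0.0293), a call lost in 5 of them. Inmt, an N-methyltransferase abundant in lung, measured 2066 ± 442 and 1311 ± 244 CPM (SD, n = 4 each; adjusted p = 0.0556). Myeloid markers summed to 995 to 1259 CPM in controls and 1402 to 1640 CPM in mutant libraries. Of these, 3 of 9 were higher, beside 5.45% of all genes tested. The part of myeloid cells in the change of Hpgds and Ptges was not tested.

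**Figure D4:**
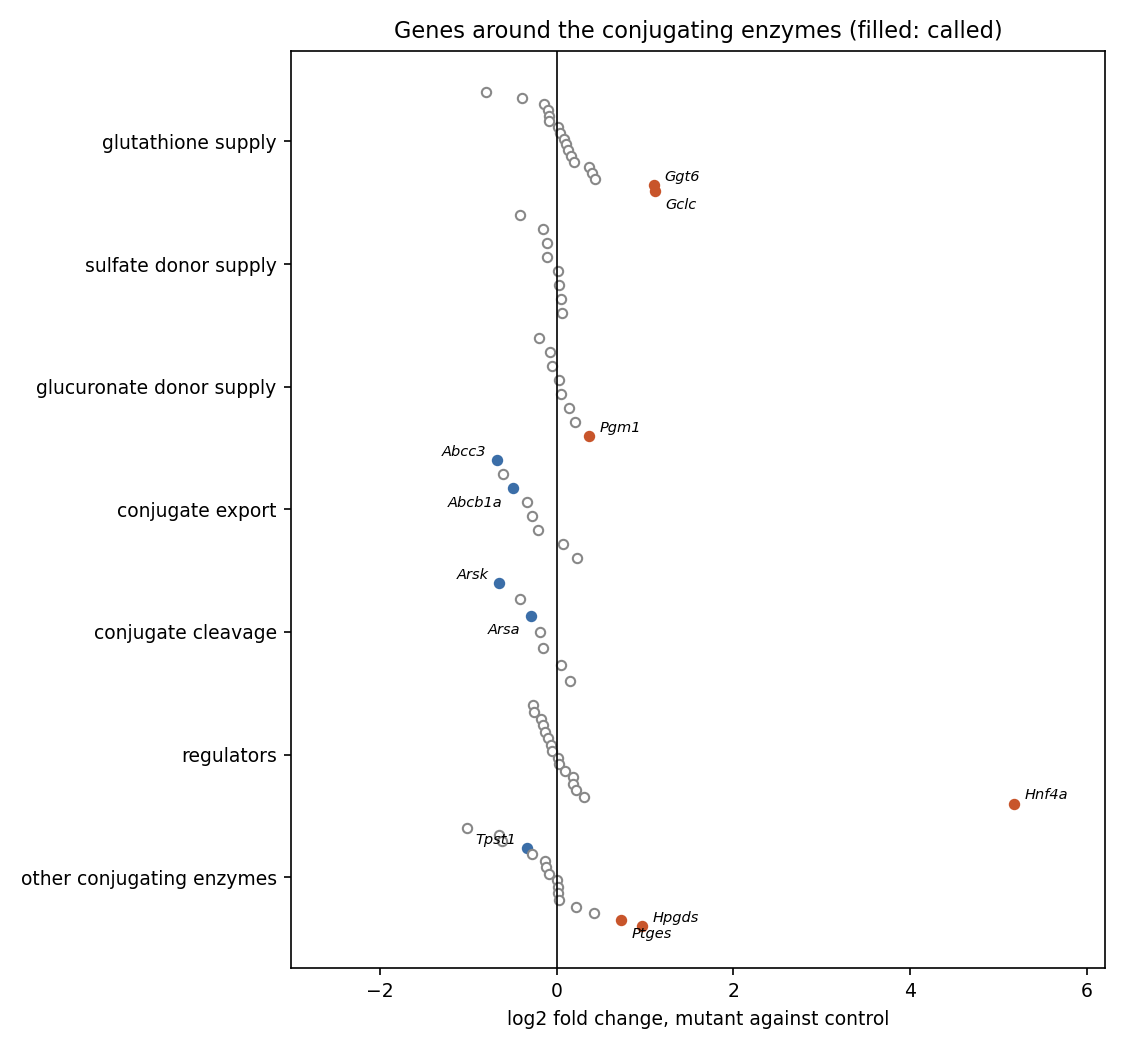
Log2 fold changes of mutant against control for tested genes of 7 lists around the conjugating enzymes (x axis: log2 fold change; 1 point per gene; filled and named: adjusted p under 0.05, blue lower and orange higher). Gclc and Ggt6 stand to the right of their list, Abcc3 to the left of its list, and Hnf4a at 5.17, which rests on 3 counts in controls. Hnf4a passed the filter through the mutant libraries alone.

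Markers of several cell types moved with the same labels. Their counts stand beside 5.45% of all genes tested called higher and 2.36% called lower. Of 10 club cell markers 7 were lower and 1 higher, among them Cyp2f2, a cytochrome P450 of club cells, which was 3.55-fold lower, and Scgb1a1, which was 3.21-fold lower. Of 7 goblet cell markers 6 were higher and 0 lower, and their summed CPM went from 135 to 257 in controls to 646 to 1042 in mutant libraries. Of 8 ciliated cell markers 4 were higher, with sums of 603 to 795 and 788 to 1027 CPM. Alveolar type II markers summed to 24757 to 35577 CPM in controls and 25931 to 33885 CPM in mutant libraries, and cardiac muscle markers to 633 to 1158 and 332 to 542 CPM, with 3 of 5 lower. The part of these shifts in the differences of the conjugating enzymes was not tested.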

How the data were processed

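RNA sequencing counts of 8 libraries, 4 labelled control and 4 labelled mutant, were analysed from 1 deposited table. Read pairs per gene were counted by the authors, per the file headers, with featureCounts 1.6.2, without strand, against GENCODE M25 on GRCm38 from STAR alignments, and left out reads with several alignments or several genes. The deposited values are raw counts, with no normalization and no pooling recorded. The submitters' processing notes also name Bowtie2 and Cufflinks, and the labels name a stranded and an unstranded kit. Without strand, a gene and its antisense partner cannot be told apart.

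Symbols and GC content came from GENCODE M21 on the same build and matched 99.53% of 55401 identifiers. No 2 libraries of a group agreed within sampling noise (chi-square per gene at least 4.72), so each was counted once. Low counts were removed by filterByExpr (at least 10 per library, 15 in total), and the rest were scaled by TMM and compared with edgeR 4.0.16 in R 4.3.3 by the robust quasi-likelihood test, with group as the only term, Benjamini-Hochberg adjustment over 16964 genes and a threshold of 0.05. Standard errors came from the F statistic, and CPM uses TMM-scaled totals. Total counts of 15111663 to 21673654 set the precision.

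The genes and lists were chosen with earlier results of these data known. Named genes are every called gene of the families, those with a mean of at least 100 CPM, the 2 of highest CPM per kilobase in a family, and up to 6 called genes per list. A gene of the lists that this rule names is not reported or drawn here, and stays in the counts over all lists. The remaining genes of the families named, cluster ratios and uncalled list genes were picked after their values were seen. A planned comparison of protein sequences was replaced by the share of 75-base stretches of GENCODE M21 transcripts found in other genes, since protein sequences were not used here. Alternatives covered other scaling, DESeq2 1.42.0, limma 3.58.1 (voom), other filters, a GC correction, a replicate block and libraries left out.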

Additional observations from a re-analysis of the deposited data

Results flagged for a closer look

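In 3 of 80 groups of 4 libraries, 1 library lay far from the other 3 by Dixon's criterion, which chance meets in about 1 of 20 groups. Gsta2 in control 1 measured 6.65 CPM, against 4.41 to 4.71 CPM in the other controls. Sult1d1 in control 2 measured 13.8 CPM, against 10.2 to 10.5 CPM in the other controls. The summed CPM of the theta class GST genes was 142 in mutant library 4, against 123 to 125 in the other mutant libraries. The call of Sult1d1 and the direction of Gsta2 held without these libraries.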

How the results depend on the processing

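Gsta3, Gstm1, Gstm2, Mgst1, Gsto1 and Sult1d1 passed the threshold in the same direction in every alternative. Gsta2 did so too, and Sult4a1 wherever it was tested, in all but the filter of at least 1 CPM in 4 libraries. Gsta2 and Sult4a1 passed the main filter only because of the group where they were higher, so their calls are not given as support. The other 5 calls were each lost in at least 1 alternative, and none of the called directions reversed. Among genes not called, the sign of Gstm4 turned with scaling to library size only (log2 fold change 0.05) and in other alternatives, that of Gstp1 without controls 1 and 4 (0.13) or without control 1 and mutant library 4 (0.04), that of Mgst3 without controls 1 and 4 (-0.04) and that of Sult2b1 without controls 2 and 3 (-0.18). Sult2b1 was called higher without controls 1 and 4 (adjusted p = 0.0107, edgeR). Leaving out 1 library at a time gave 2 to 4 higher and 6 to 10 lower calls among the conjugating enzymes, 5 to 10 higher and 1 to 9 lower in the surrounding lists, and 515 to 1517 higher and 146 to 1117 lower over all genes. Higher calls among the conjugating enzymes dropped to 2 without mutant library 1 or 4. Without controls 1 and 4 the calls were 5 higher and 12 lower among the conjugating enzymes, 14 and 24 in the lists, and 3750 and 3338 over all genes. Without controls 2 and 3 they were 2 and 7, 6 and 0, and 628 and 223. Without control 1 and mutant library 4, whose description numbers are consecutive, they were 2 and 9, 7 and 6, and 1024 and 625. DESeq2 gave 4 and 10, 10 and 11, and 1336 and 939, the GC correction 4 and 9, 7 and 8, and 823 and 744. Lower calls in the lists numbered 5 with all libraries, 3 with limma-voom and 1 with scaling to library size only. The cause of these changes was not tested. The log2 ratio of summed SULT CPM was -0.66 with all libraries and -0.13 without controls 2 and 3.

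The replicate numbers do not pair the libraries: correlations of same-numbered deviations were 0.01, 0.13, -0.12 and 0.13. With the replicate block, 3 higher and 8 lower calls stood among the conjugating enzymes (without Gsto2 and Ugt1a6a), 7 and 3 in the lists and 865 and 371 over all genes. Depth limits the 36 untested genes, where at most 16 counts occurred in a library, and the genes near 1 CPM.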
